A study of Mus musculus with 15 samples.

Results

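Mouse Trav genes are the variable segments of the T cell receptor alpha locus, and 126 of the 128 genes whose symbol begins with Trav and a digit remain once Trav11 and Trav11d, the segments of the invariant alpha chain, are set aside. These 126 members were taken by symbol from a table of 48795 gene IDs, of which 48349 carried a symbol. Trav11n is a member by this rule, although it is a close copy of Trav11. The study sequenced polyA RNA of iNKT cells sorted from lymphoid tissues of WT C57BL/6 mice aged 6 weeks, as cells that bound CD1d tetramer, were TCR-b+ and lacked B220, CD11b and CD11c (with CD8- added in 1 of the label texts). There were 4 samples each from thymus, spleen and mesenteric lymph node (mLN) and 3 from inguinal lymph node (iLN), with replicates 1 and 2 in the batch labelled Second and replicates 3 and 4 in the batch labelled First. iLN replicate 1 was not analysed here, and no label states if each replicate came from 1 animal or from pooled animals, so the p-values measure the spread between these samples. Total expected counts, the authors' estimates of fragments per gene, ranged from 1152702 in thymus replicate 2 to 8670570 in spleen replicate 1, with a median of 5327351.

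An alpha chain is made when a developing T cell joins 1 Trav segment to 1 Traj segment, and both chromosomes can carry such a joint. In iNKT cells the joint of Trav11 (also called Vα14) with Traj18 gives the invariant chain that binds lipids held by CD1d. A count on another Trav gene shows RNA that contains that segment, not that its chain was in frame, was paired with a beta chain or stood on the cell surface.

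The members lay on the plus strand of chromosome 14, in a locus that ran from base 52427928 to base 53977678 of GRCm38 with Trav11 at 53519303 to 53519859. GENCODE M21 annotated 106 of them as V genes and 20 as V pseudogenes, and their symbols fell into 22 families besides family 11. Upstream of Trav11 lay 91 members and downstream of it 35. Much of the upstream part is a set of copies, marked by the letter d in 38 symbols and by n in 34, while 54 symbols carried neither letter. In 18 pairs the transcripts of 2 members were identical, so the 126 genes stood for 108 distinct segments. The authors' counting divided fragments between such copies by estimate, which left the count of a single gene uncertain, and counts are therefore given below per segment (identical genes summed) or per family (all genes that share the first number of the symbol).

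The last 90 bases of the V exon are printed for Trav11, for its copy Trav11n and for 9 members, each of them the single gene with most counts in a family or in a sample, to show how far the other alpha chains lie from the invariant one in sequence just before the joint. The last in-frame TGT or TGC, the codon of the conserved cysteine at which the third complementarity-determining region starts, is in capitals, except in Trav11n, where the capital marks the 1 base of 90 that differs from Trav11.
Trav11: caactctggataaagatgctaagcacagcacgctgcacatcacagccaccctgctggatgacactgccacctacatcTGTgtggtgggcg
Trav11n: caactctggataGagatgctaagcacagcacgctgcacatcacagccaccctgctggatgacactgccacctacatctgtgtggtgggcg
Trav12d-2: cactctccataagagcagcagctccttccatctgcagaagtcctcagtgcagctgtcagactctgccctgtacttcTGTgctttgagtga
Trav12-2: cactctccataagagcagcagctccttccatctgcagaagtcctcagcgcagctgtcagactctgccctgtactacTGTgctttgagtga
Trav3d-3: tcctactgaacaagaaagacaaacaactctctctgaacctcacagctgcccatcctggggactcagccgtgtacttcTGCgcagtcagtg
Trav6-1: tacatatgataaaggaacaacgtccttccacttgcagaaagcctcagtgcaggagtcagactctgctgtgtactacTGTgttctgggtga
Trav7-4: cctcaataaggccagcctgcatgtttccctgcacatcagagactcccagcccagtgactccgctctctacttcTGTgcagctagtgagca
Trav14n-3: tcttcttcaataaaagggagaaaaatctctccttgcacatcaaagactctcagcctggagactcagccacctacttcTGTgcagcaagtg
Trav15d-1-dv6d-1: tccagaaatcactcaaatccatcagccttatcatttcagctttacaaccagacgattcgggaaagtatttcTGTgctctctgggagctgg
Trav1: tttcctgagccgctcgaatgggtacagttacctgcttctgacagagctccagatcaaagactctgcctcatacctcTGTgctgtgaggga
Trav10: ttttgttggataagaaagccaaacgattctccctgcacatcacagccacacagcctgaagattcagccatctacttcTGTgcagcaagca
These exon ends are on the plus strand of GRCm38. Trav11 ended at chr14:53519770-53519859, Trav11n at chr14:53135589-53135678, Trav12d-2 at chr14:52916337-52916426 and Trav12-2 at chr14:53616825-53616914. Trav3d-3 ended at chr14:52972949-52973038, Trav6-1 at chr14:52638873-52638962, Trav7-4 at chr14:53461649-53461738 and Trav14n-3 at chr14:53370486-53370575. Trav15d-1-dv6d-1 ended at chr14:52863847-52863936, Trav1 at chr14:52428787-52428876 and Trav10 at chr14:53506197-53506286. Over the whole V exon Trav11n was 97.9% identical to Trav11 (6 edits) and Trav11d was 99.7% identical to it (1 edit), whereas Trav12d-2, Trav1 and Trav10 reached 51.9%, 52.9% and 58.1%. Reads of the latter 3 are thus easily told from reads of the invariant chain. Reads of Trav11d, and to a lesser degree those of Trav11n, are harder to tell from it. The exons of Trav12d-2 and Trav12n-2 were identical, and Trav12-2 differed from them by 14 edits (95.2% identity).

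Members held 2929.28 of the 20746 counts on Trav genes over the 15 samples. In the thymus their share of all Trav counts was 10.1% in replicate 1 (95% Wilson interval 8.96 to 11.4), 14.7% in replicate 2 (11.5 to 18.6), 11.5% in replicate 3 (9.78 to 13.5) and 11.4% in replicate 4 (10.03 to 12.8). In the spleen it was 11.02% (9.60 to 12.6), 13.2% (11.4 to 15.2), 15.3% (13.2 to 17.7) and 12.8% (10.97 to 14.9) in replicates 1 to 4. In mLN it was 22.0% (20.2 to 23.8), 17.2% (15.5 to 19.1), 13.0% (11.2 to 14.9) and 17.9% (15.9 to 20.2). The mLN samples 1, 2 and 4 lay above every thymus and spleen sample, and mLN replicate 3 lay among them. In iLN the share was 12.1% (10.5 to 13.9) in replicate 2, 15.01% (12.7 to 17.6) in replicate 3 and 15.6% (13.9 to 17.6) in replicate 4, a range that overlapped both other groups. The intervals cover counting error only. The widest interval, that of thymus replicate 2, came with the fewest Trav counts, 381.

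**Figure D1:**
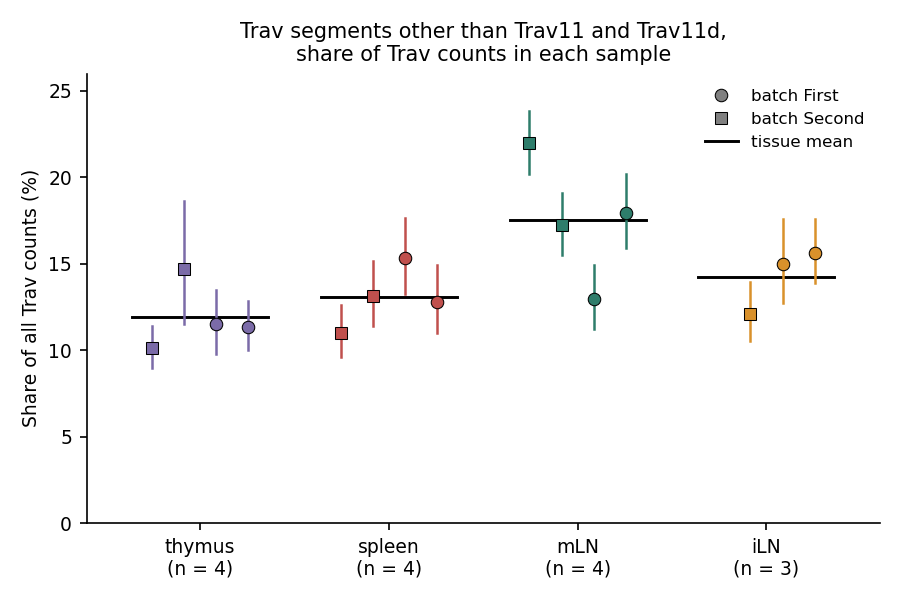
Share of all Trav counts that lay on members, in percent, for each sample of the 4 tissues. Bars are 95% Wilson intervals, horizontal lines are tissue means and marker shape gives the batch; mLN replicate 1, at 22.0%, is the highest sample and thymus replicate 1, at 10.1%, the lowest.

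Mean shares were 11.9% ± 1.96 in the thymus (SD, n = 4), 13.1% ± 1.76 in the spleen (n = 4), 17.5% ± 3.69 in mLN (n = 4) and 14.3% ± 1.88 in iLN (n = 3). Over both lymph nodes the share was 3.63 percentage points above the mean of the other 8 samples (p = 0.0159 by exact permutation, two-sided, as were all such tests here). Within the batch First the difference was 2.64 points (exact p = 0.114) and within the batch Second 4.86 points (exact p = 0.143), where the smallest p either batch allowed was 0.0286. With TPM, which divides by gene length, in place of counts it was 2.54 points (exact p = 0.0507). It was 1.03 points (exact p = 0.814) when Trav11d was counted as a member. Thymus replicate 3 had 247.76 counts on Trav11d, against 12.09 in iLN replicate 2 and at most 0.01 in the other 13 samples. An exact permutation test of F over the 4 tissues gave p = 0.0392. With a block for the replicate number, a setting given in the last section, the p of this test was over 0.05. Without the block, it was 0.0797, 0.0739 and 0.0753 without thymus replicate 1, 3 or 4, and 0.0532, 0.0603 and 0.0615 without spleen replicate 1, 2 or 4. It was 0.123, 0.0675 and 0.0818 without mLN replicate 1, 2 or 4, and 0.0602 and 0.0548 without iLN replicate 3 or 4.

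A share can move with either of its parts, so the summed levels of the members and of Trav11 were set side by side as CPM, counts scaled to the size of the library after its adjustment by the TMM factor of edgeR (0.755 in spleen replicate 3 to 1.18 in thymus replicate 2), as are all CPM here unless stated. The members summed to 29.1, 41.2, 36.1 and 42.9 CPM in thymus replicates 1 to 4 and to 18.0, 24.2, 39.1 and 28.9 CPM in spleen replicates 1 to 4. They summed to 55.8, 43.4, 33.7 and 42.6 CPM in mLN and to 30.9, 33.6 and 39.3 CPM in iLN replicates 2 to 4. On this scale the tissues overlapped, and the highest spleen sample, replicate 3, lay above the lowest mLN sample and above 2 of the 3 iLN samples. Without the TMM factor, a setting added after the data were seen, that overlap of the spleen was absent: its samples had 20.99, 25.98, 29.5 and 28.9 CPM, against at least 34.2 CPM in mLN and at least 30.4 CPM in iLN. Thymus samples, with 28.9 to 48.6 CPM, overlapped the lymph nodes on that scale too. The mean was 43.9 ± 9.07 CPM in mLN (SD, n = 4), 37.3 ± 6.17 in the thymus (n = 4), 34.6 ± 4.33 in iLN (n = 3) and 27.6 ± 8.93 in the spleen (n = 4). Between lymph nodes and the other tissues the mean log2(CPM + 1) differed by 0.32 (exact permutation p = 0.118), and without the TMM factor by 0.37 (exact permutation p = 0.0528). Trav11 with Trav11d summed to 278 ± 41.4 CPM in the thymus (SD, n = 4), 179 ± 32.9 in the spleen (n = 4), 207 ± 14.1 in mLN (n = 4) and 209 ± 17.0 in iLN (n = 3). Its log2 difference between lymph nodes and the other tissues was −0.09 (exact permutation p = 0.573), and without the TMM factor −0.04 (exact permutation p = 0.793). Thus the thymus, with the lowest mean share of members, had the highest mean level of Trav11 and the second highest mean level of members, while the spleen was lowest in both. In bulk RNA, fewer cells with a segment and less of its RNA per cell cannot be told apart.

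**Figure D2:**
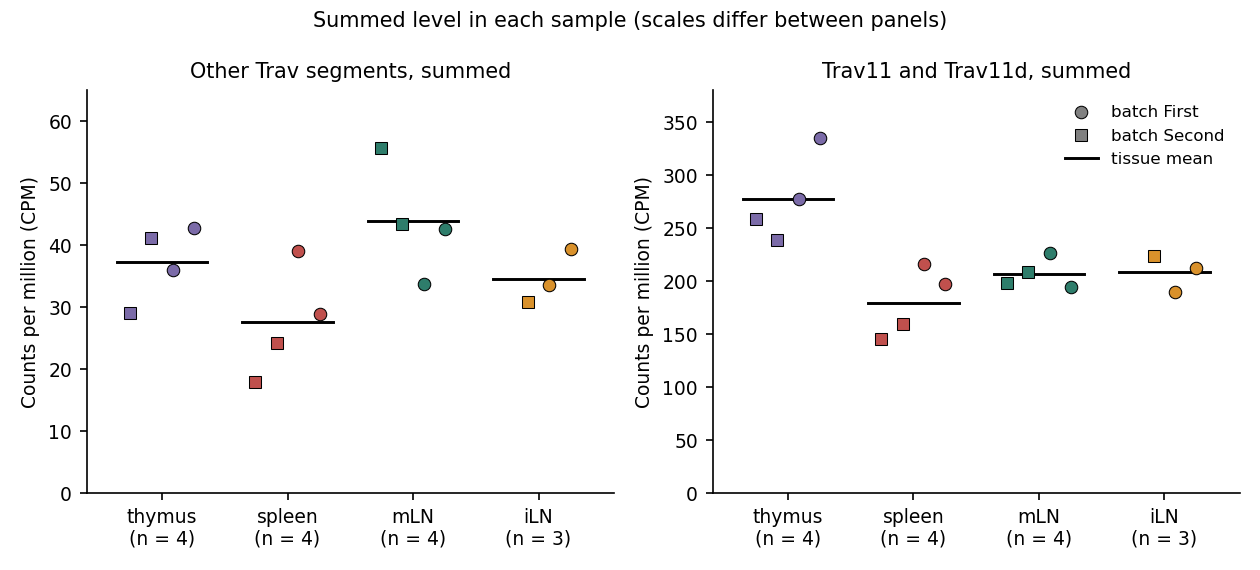
Summed level in CPM (with the TMM factor) of the members (left) and of Trav11 with Trav11d (right) in each sample of the 4 tissues; horizontal lines are tissue means and marker shape gives the batch. The members' level was highest in mLN replicate 1 (55.8 CPM) and lowest in spleen replicate 1 (18.0 CPM), and the Trav11 level was highest in thymus replicate 4 (335 CPM).

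The members' RNA was spread over many segments at low counts. Of the 126 members, 18 had no count in any of the 15 samples, 30 had summed counts above 0 and below 10, 27 had 10 to below 20, 32 had 20 to below 50, 17 had 50 to below 100 and 2 had 100 or more. Families 2, 18 and 23 were at 0 in every sample. A sample had at least 1 count on 23 members (thymus replicate 2) to 70 members (thymus replicate 4), with a median of 50. Pseudogenes held 58.51 counts in all, on 8 of the 20, of which Trav11n had 25.25. Members downstream of Trav11 took 16.3% of member counts, in sum 476.49, and between 10.7% and 27.9% in single samples. Their mean share of member counts was 14.4% ± 2.54 in the thymus (SD, n = 4), 17.6% ± 4.97 in the spleen (n = 4), 17.7% ± 7.08 in mLN (n = 4) and 13.8% ± 3.07 in iLN (n = 3), which differed by less than the spread within mLN.

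By family, 61.1% of member counts fell to the 5 families with most counts. Family 12 had 17.0% of member counts, family 6 had 16.8%, family 13 had 9.80%, family 7 had 9.22%, and families 9 and 14 had 8.33% each. Per length the order changed: the mean TPM over the 15 samples was 45.8 for family 6, 34.8 for family 13, 29.3 for family 12, 23.2 for family 14, 20.6 for family 3 and 20.1 for family 7. The other 16 families each had a mean of at most 14.97 TPM. All members together had a mean of 248 TPM, against 1798 TPM for Trav11 with Trav11d. Family 6 led the members in 4 samples (thymus 1, 2 and 4 and spleen 1, level with family 13 in thymus 2) and family 12 in another 4 (mLN 1, 2 and 4 and iLN 2). Families 9 and 14 led in 2 samples each, and families 3, 13 and 15 in 1 each.

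**Figure D3:**
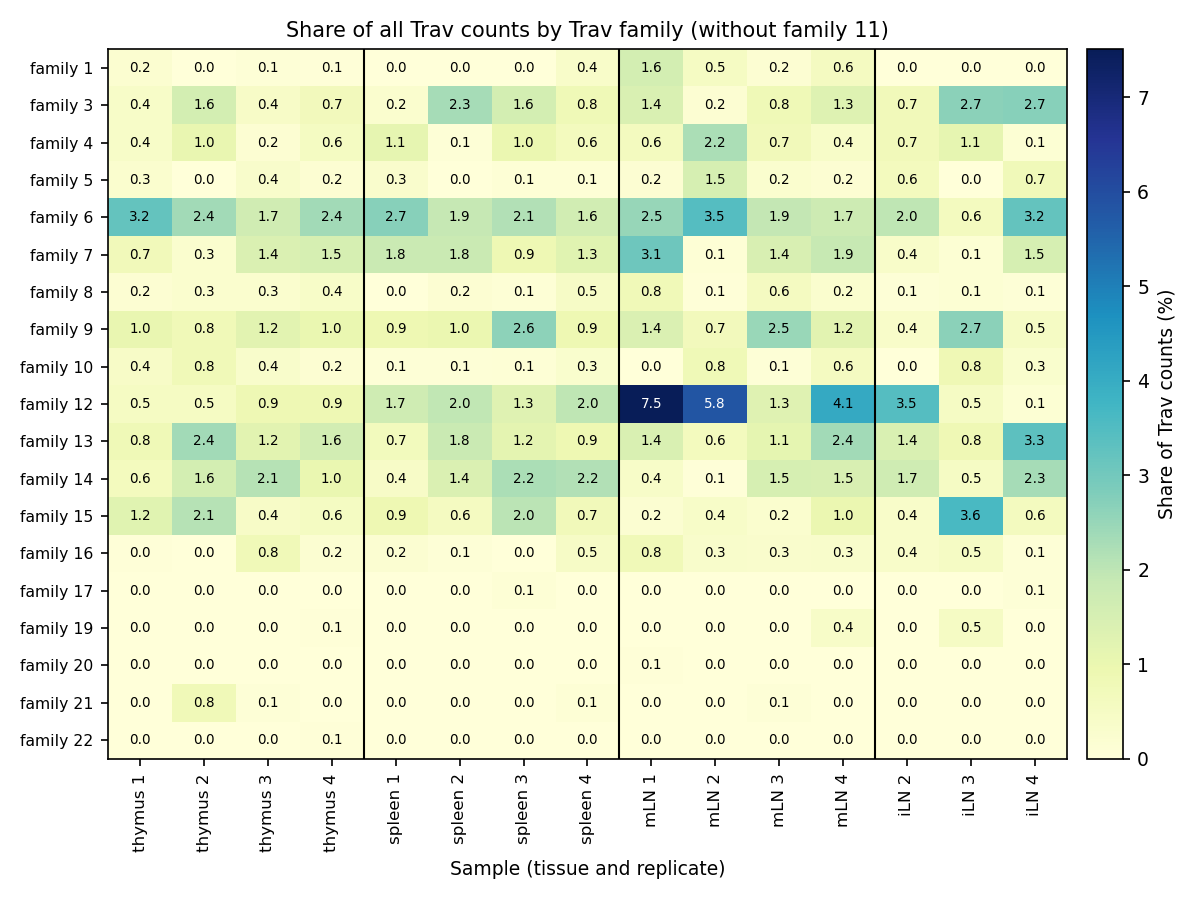
Share of all Trav counts, in percent, by Trav family (rows, family 11 left out, and the 3 families at 0 in every sample not drawn) and sample (columns). Family 12 reached 7.51% in mLN replicate 1 and 5.82% in mLN replicate 2, and family 6 lay between 0.605% and 3.46% in the 15 samples.

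Family 12 was the family whose share differed most between the lymph nodes and the other tissues, and most of its excess was in mLN. Its share of Trav counts in mLN was 7.51% in replicate 1 (95% Wilson interval 6.42 to 8.76), 5.82% in replicate 2 (4.81 to 7.02), 1.28% in replicate 3 (0.789 to 2.07) and 4.06% in replicate 4 (3.09 to 5.31). In iLN it was 3.45% in replicate 2 (2.62 to 4.54), 0.484% in replicate 3 (0.188 to 1.24) and 0.136% in replicate 4 (0.0373 to 0.495). Spleen samples had 1.69%, 1.96%, 1.27% and 1.98%, and thymus samples 0.514%, 0.525%, 0.878% and 0.854%. Each spleen sample lay above each thymus sample, and 3 of 4 mLN samples lay above each spleen sample, whereas iLN held both a high sample and the lowest of all 15. Mean shares were 4.67% ± 2.66 in mLN (SD, n = 4), 1.73% ± 0.332 in the spleen (n = 4), 1.36% ± 1.82 in iLN (n = 3) and 0.693% ± 0.200 in the thymus (n = 4). The exact permutation test of F over the 4 tissues gave p = 0.0205 for this family, 1 of 14 families tested (those with a mean share of at least 0.1%). With the Benjamini-Hochberg adjustment for 14 tests neither family 12 nor any other passed 0.05, although 2 families, 1 and 12, had an unadjusted p under 0.05. The unadjusted exact p of family 12 was 0.0593 without mLN replicate 1, 0.0513 without mLN replicate 2 and 0.00269 without mLN replicate 3. Without mLN replicate 3, the mLN sample with the lowest family 12 share, families 1 and 12 passed the adjusted threshold, and with any of the other 14 samples left out 0 families did.

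The share gained in lymph nodes was the sum of gains and losses over families. Family 12 accounted for 2.04 of the 3.63 points by which lymph nodes exceeded spleen and thymus, or 56.2%. Its points were 1.33 without mLN replicate 1, and it had the most points of any family whichever of the 15 samples was left out. Family 3 came next with 0.398 points, which were 0.187 without iLN replicate 3, 0.177 without iLN replicate 4 and 0.602 without mLN replicate 2. Family 5 accounted for 0.335 points, and for 0.167 without mLN replicate 2. Family 1 accounted for 0.315 points, and for 0.119 without mLN replicate 1. With all samples the largest loss was that of family 14, −0.310 points, which was −0.506 without iLN replicate 4, −0.202 without iLN replicate 3, −0.189 without mLN replicate 1, −0.130 without mLN replicate 2 and −0.195 without spleen replicate 3. That rank depended on single samples. Family 15 lost more without iLN replicate 3 (−0.609 points) and without thymus replicate 3 (−0.247, against −0.215 for family 14). Family 7 lost more without mLN replicate 1 (−0.309), and family 6 without mLN replicate 2 (−0.263). Of the 19 families with counts, 13 had a higher mean share in lymph nodes and 6 a lower one, and without mLN replicate 3 these numbers were 10 and 9. With family 12 taken out of the members, a step chosen after its values were seen, the mean share was 12.9% ± 1.53 in mLN (SD, n = 4), 12.9% ± 3.70 in iLN (n = 3), 11.3% ± 1.97 in the spleen (n = 4) and 11.2% ± 2.02 in the thymus (n = 4). The tissues overlapped on that measure, with single samples between 8.67% and 15.5%.

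Within family 12, the identical genes Trav12d-2 and Trav12n-2 formed the segment with most counts of all members, 252 in sum. It had 102 counts in mLN replicate 1 and 63 in mLN replicate 2, but 6 and 11 in mLN replicates 3 and 4. In iLN it had 18, 2 and 1 counts in replicates 2 to 4, in the spleen 7, 12, 8 and 8 counts, and in the thymus 5, 2, 2 and 5. It was also 1 of 2 segments with at least 1 count in every sample. Trav12-1 had 36.85 counts in mLN replicate 1 and at most 5 in any other sample. Trav12-2 had 33 counts in mLN replicate 2, 15 in mLN replicate 4, 15 in spleen replicate 1 and at most 8 elsewhere. Trav12n-3 had 14.22 counts in iLN replicate 2. The high family share in mLN thus came from different family 12 segments in different samples, with the Trav12d-2 and Trav12n-2 sequence in common to mLN replicates 1 and 2.

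Trav1, the only gene of family 1, supplies the alpha chain of MAIT cells, another T cell lineage with an invariant receptor. It had 31, 9, 2 and 7 counts in mLN replicates 1 to 4, 5, 0, 1 and 1 counts in the thymus and 0, 0, 0 and 4 counts in the spleen. All 3 iLN samples had 0 counts, which by a floor of 3 counts allows a share of up to 0.211%, 0.363% and 0.204% of Trav counts in iLN replicates 2 to 4. Only mLN had counts in each of its samples, and mLN replicate 1 held 51.7% of all Trav1 counts. Its share of Trav counts was 0.707% ± 0.612 in mLN (SD, n = 4), 0.0881% ± 0.0915 in the thymus (n = 4) and 0.0900% ± 0.180 in the spleen (n = 4). The exact permutation test of F gave p = 0.0133 before adjustment for the 14 families, and between 0.00363 and 0.0427 with 1 sample left out at a time. Trdc, the constant segment of the delta chain, had 60.02, 8, 1 and 14 counts in mLN replicates 1 to 4 and at most 4 counts in the other 11 samples, so that mLN replicates 1, 2 and 4 were highest in both genes and mLN replicate 3 was not high in Trdc. Its part in the Trav1 and family 12 counts was not tested.

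Family 6 has 15 genes, and its share was similar in the means of the 4 tissues. It ranged from 1.67% to 3.21% in the thymus, 1.62% to 2.72% in the spleen, 1.703% to 3.46% in mLN and 0.605% to 3.20% in iLN, and means lay between 1.93% and 2.40%. Its exact permutation p over tissues was 0.824. The segment Trav6-6 with Trav6d-6 had 1 count or more in 14 of 15 samples and at most 17 counts in any (thymus replicate 4). Trav6-1 was the opposite case, with 27 counts in spleen replicate 1, 6 in mLN replicate 2 and at most 2 in the other 13 samples. Trav6-5 had 20 counts in iLN replicate 4 and 18.6 in mLN replicate 2.

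Family 3 had 195.02 of its 219.98 counts on the pair Trav3d-3 and Trav3n-3, the other segment with counts in every sample. The pair had 8, 6, 5 and 10 counts in the thymus, 3, 28, 9 and 9 in the spleen, 28, 3, 10 and 13.02 in mLN and 10, 21 and 32 in iLN replicates 2 to 4. The family's mean share was highest in iLN, at 2.03% ± 1.15 (SD, n = 3), against 1.23% ± 0.891 in the spleen, 0.925% ± 0.570 in mLN and 0.776% ± 0.551 in the thymus (n = 4 each), and the exact permutation p over tissues was 0.234. Samples of each tissue overlapped with those of each other tissue. Families 7, 9, 13 and 14 also overlapped between tissues. Family 7 ran from 0.115% in mLN replicate 2 to 3.06% in mLN replicate 1 (exact permutation p over tissues 0.411). Family 9 ran from 0.352% in iLN replicate 2 to 2.66% in iLN replicate 3 (exact p = 0.889). Family 13 ran from 0.634% in mLN replicate 2 to 3.33% in iLN replicate 4 (exact p = 0.718), and family 14 from 0.0576% in mLN replicate 2 to 2.31% in iLN replicate 4 (exact p = 0.598). In each of these 4 families the lowest and the highest of the 15 samples were both lymph node samples.

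Trav10 shares its number with human TRAV10, the segment of the invariant chain of human iNKT cells. In the mouse that chain uses Trav11, to which the V exon of Trav10 was 58.1% identical. Trav10 had 10, 3, 4 and 3 counts in the thymus, 1, 1, 0 and 2 in the spleen, 0, 6.5, 0.5 and 7 in mLN and 0, 3.45 and 4 in iLN. No tissue stood apart: the share of family 10, which has 3 genes, averaged 0.429% ± 0.266 in the thymus (SD, n = 4), 0.127% ± 0.0962 in the spleen (n = 4), 0.364% ± 0.388 in mLN (n = 4) and 0.373% ± 0.433 in iLN (n = 3), with an exact permutation p of 0.560. Trav11n, whose V exon differs from that of Trav11 by few bases, had between 0 and 7 counts in a sample, highest in mLN replicate 2. Counted with Trav11 instead of with the members, it moved the lymph node difference in share from 3.63 to 3.51 points (exact permutation p = 0.0168), a setting chosen after the data were seen.

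Segments with dv in the symbol can be joined to delta as well as alpha segments, and 10 members are of this kind. Their summed share of Trav counts was 1.24%, 2.89%, 0.527% and 0.698% in thymus replicates 1 to 4 and 0.696%, 0.465%, 1.68% and 1.12% in spleen replicates 1 to 4. It was 0.741%, 0.259%, 0.680% and 1.19% in mLN and 0.388%, 3.73% and 0.820% in iLN replicates 2 to 4. The 2 highest samples, iLN replicate 3 and thymus replicate 2, came from different groups. Lymph nodes and the other tissues differed by −0.05 points (exact permutation p = 0.913), a difference whose sign depended on single samples. Without thymus replicate 2, which had 11 such counts, it was 0.198 points. The value of iLN replicate 3 came from 28 counts that were assigned to Trav15d-1-dv6d-1, a segment identical to Trav15n-1, whose symbol has no dv. Of the delta segments, Trdv1, Trdv3 and Trdv4 had no count in any of the 15 samples, and Trdv2-1, Trdv2-2 and Trdv5 had at most 3 counts in any.

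Counts of some segments lay mostly in 1 sample. Of 43 segments with at least 20 summed counts, 8 had over 50% of them in 1 sample, and the median of the top sample's share was 28.4%. How far counting error alone would spread such low counts was not tested. Trav7-1 had 26 of its 32 counts in mLN replicate 1, Trav6-1 had 27 of 38 in spleen replicate 1, Trav12-1 had 36.85 of 54.7 in mLN replicate 1, and Trav4d-4 with Trav4n-4 had 35 of 58 in mLN replicate 2. Trav14n-3 had 29.93 of 54.4 counts in iLN replicate 4, a sample that also held 22 of 60.2 counts of Trav13-1. Trav9n-4 had 26 counts in mLN replicate 1 and 22 in thymus replicate 1, and none in 5 samples. Trav7-4 had 24 counts in spleen replicate 1, 20.1 in mLN replicate 1 and 15.25 in thymus replicate 4, but 0 or 1 in the 3 iLN samples. Of the 8 segments with over 50% of their counts in 1 sample, 5 had that peak in mLN, 4 of them in mLN replicate 1 (Trav1, Trav7-1, Trav12-1 and Trav16d-dv11), and thymus, spleen and iLN had 1 each.

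**Figure D4:**
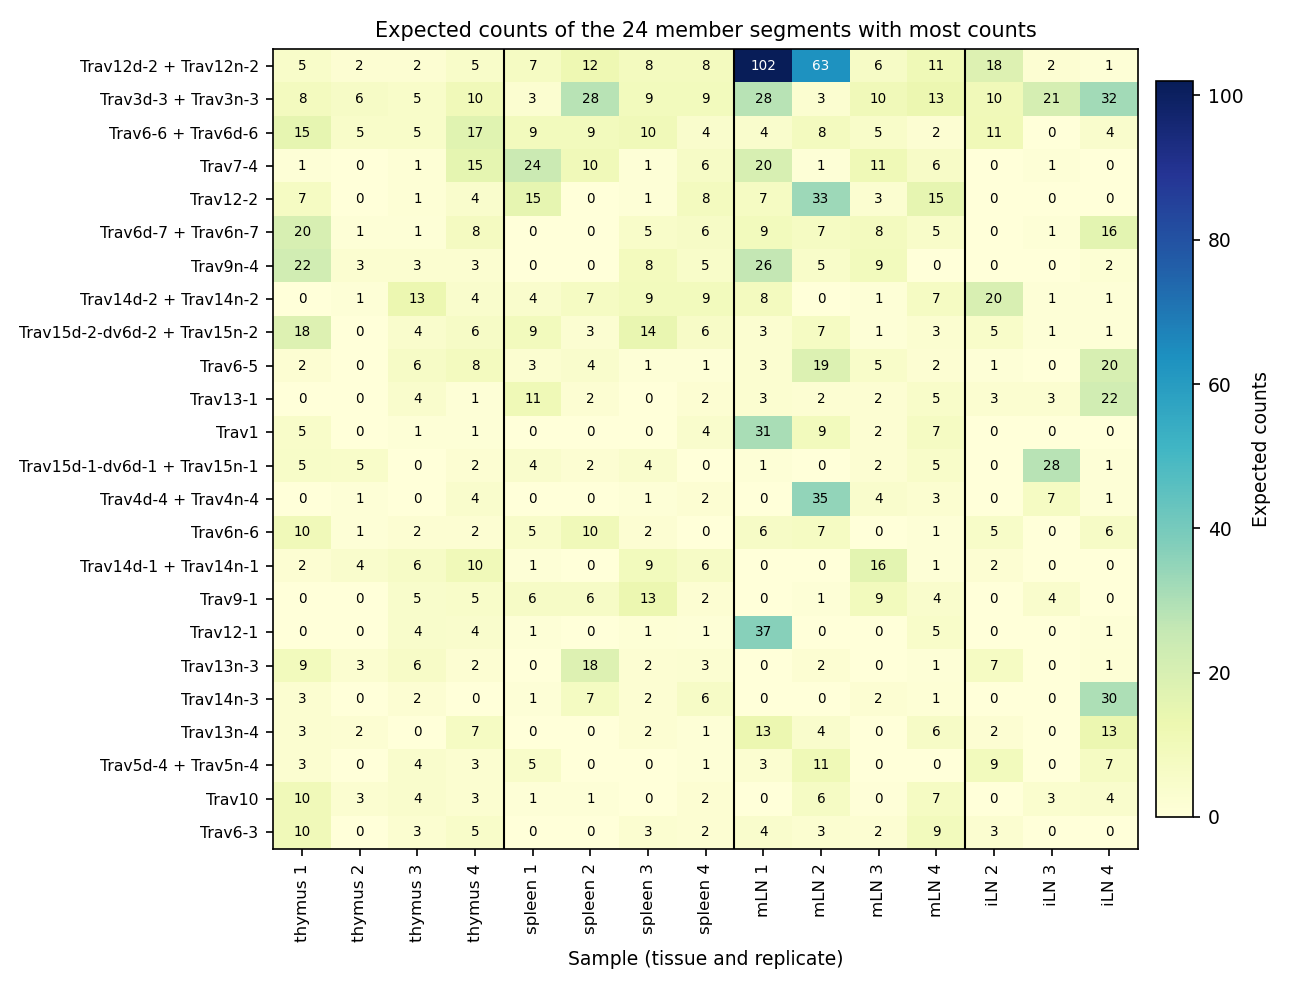
Expected counts of the 24 member segments with most counts (rows; genes with identical sequence are summed) in each sample (columns), not adjusted for depth. Trav12d-2 with Trav12n-2 had 102 counts in mLN replicate 1, and other segments had their highest count in other samples, such as Trav14n-3 with 29.93 in iLN replicate 4.

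The leading segment held 6.33% of member counts in spleen replicate 4 (95% Wilson interval 3.36 to 11.6) and 23.7% in mLN replicate 1 (19.9 to 28.0), the lowest and highest of the 15 samples, with a median of 10.7%. The identical genes Trav3d-3 and Trav3n-3 led in 3 samples, Trav14d-2 with Trav14n-2 in 2 and Trav12d-2 with Trav12n-2 in 2, and 7 other segments led in 1 sample each, while in spleen replicate 4 the first 2 of these were level with 9 counts each. To reach 50% of member counts took 8, 7, 10 and 13 segments in thymus replicates 1 to 4 and 6, 6, 8 and 11 in the spleen. It took 5, 4, 9 and 13 segments in mLN and 7, 4 and 5 in iLN replicates 2 to 4. In thymus, spleen and mLN the samples of the batch Second (replicates 1 and 2) needed fewer segments than those of the batch First, and in iLN the batch First needed fewer. The part of the batch in these numbers was not tested.

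**Figure D5:**
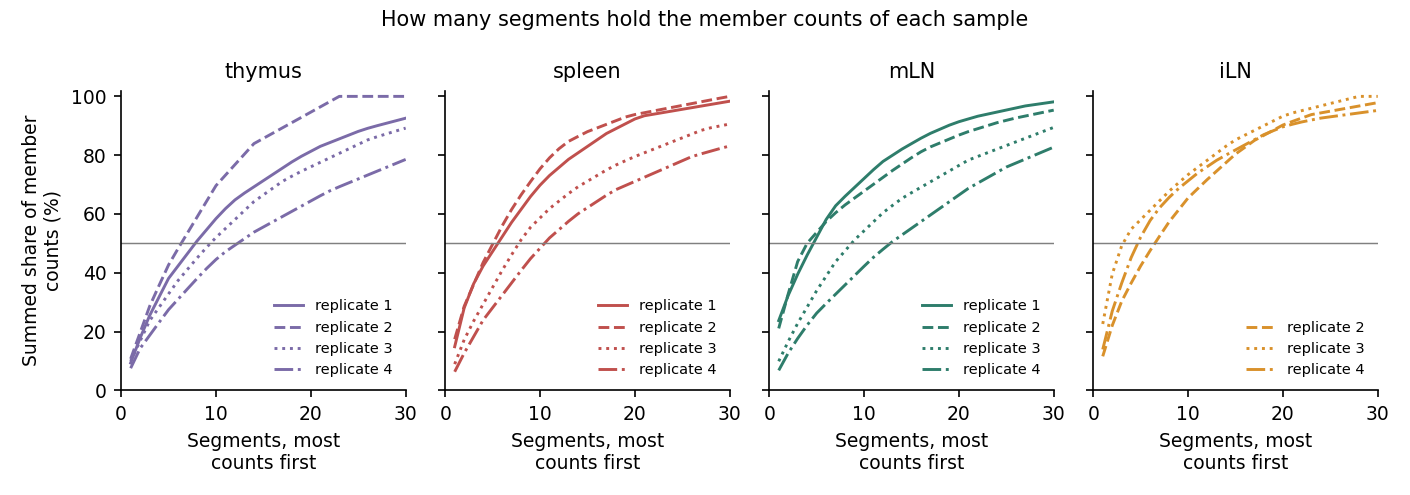
Summed share of member counts, in percent, against the number of segments taken in order of their counts, for each sample, with 1 panel per tissue and 1 line per replicate; the grey line marks 50%. In mLN, 4 segments reached 50% in replicate 2 and 13 in replicate 4.

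Tests of single genes had little to work on. In a fit of all genes with edgeR's quasi-likelihood test, 4 members of 126 (Trav3d-3, Trav3n-3, Trav7-4 and Trav9n-4) passed the filter on low counts. At an adjusted p under 0.01 and a fold change over 1.5, 0 of the 4 were called for lymph nodes against spleen and thymus, against 1.72% of all genes tested. The count was likewise 0 for thymus against spleen (1.32% of all genes), for mLN against spleen (0.654%), for iLN against spleen (1.55%) and, by adjusted p alone, for any difference between tissues (3.38%). DESeq2 called 0 of the 4 in each comparison, against 478, 387, 248, 556 and 1002 of all 13600 genes in the same order. At an unadjusted p under 0.05 edgeR and DESeq2 each had 0, 0, 0, 1 and 0 members in these 5 comparisons. No share over all genes is given for that threshold. The 1 member was Trav7-4 in iLN against spleen, with a log2 fold change of −4.15 ± 1.74 (SE) and an adjusted p of 0.229. The median log2 fold change of the 4 for lymph nodes against spleen and thymus was −0.27, beside 0.02 for all 13600 genes tested. This median counted the same segment more than once, since Trav3d-3 and Trav3n-3 are identical and had 0.62 each. The other values were −1.58 for Trav7-4 and −1.16 for Trav9n-4. No member had an unadjusted p under 0.05 in edgeR for that comparison, so a fall in these segments is not shown. Over the same 4 genes the median biological coefficient of variation was 0.888, beside 0.426 over all genes tested. Their median log2 CPM was 0.59, beside 4.01.

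Summing each family to 1 feature let 9 of 22 member families through the filter (3, 4, 6, 7, 9, 12, 13, 14 and 15). Of these 0 were called by edgeR for lymph nodes against spleen and thymus, beside 1.73% of all features tested, and 0 for thymus (1.33%), mLN (0.654%) and iLN (1.55%) against spleen and for any difference between tissues (3.37%). At an unadjusted p under 0.05 edgeR had 0 families in each of the first 4 comparisons and 1, family 12, in the last. DESeq2 called 0 families in each, beside 478, 388, 248, 558 and 1004 of all 13605 features in the same order. It had 1 family at an unadjusted p under 0.05 for mLN against spleen and 1 for any difference. No share over all features is given for that threshold, so these counts are not read as a result about the families. For family 12, mLN exceeded spleen by 1.54 ± 0.75 (log2 fold change ± SE, adjusted p = 0.424 in edgeR), and its adjusted p for any difference between tissues was 0.218. For family 6 the same difference was 0.47 ± 0.56 (edgeR adjusted p = 0.807). The median over the 9 families was −0.06 for lymph nodes against spleen and thymus, with 4 of 9 above 0, beside 0.02 over all 13605 features tested. Against spleen alone the median was above 0 in each comparison. It was 0.47 for mLN (6 of 9 above 0), 0.22 for iLN (6 of 9) and 0.24 for thymus (7 of 9), beside 0.0002, 0.009 and −0.01 over all features.

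The genes that the members act with were read from a list of the alpha and delta loci and the receptor. Trac, the constant segment to which each Trav joint is spliced, had 1085 to 6644 counts, and each of Trbc1, Trbc2, Cd3d, Cd3e, Cd3g and Cd247 had more than 140 counts in every sample. Of 60 Traj genes 1, Traj18, had any count, with 0 to 2 counts in a sample, so that the J segments joined to the members could not be read from these counts. Rag1, which makes the joints, had 156, 30, 20 and 31 counts in the thymus and at most 1 count in the other 11 samples, and it was the only gene of the 9 tested from the list of 18 that edgeR called, higher in thymus than in spleen by 7.86 ± 1.13 (log2 fold change ± SE, adjusted p = 0.00118). Dntt, which adds bases at the joints, had 13, 18, 6 and 8 counts in the thymus, 7 in spleen replicate 3 and 0 in the other 10 samples. Rag2 had at most 3 counts in any sample, and Ptcra, the pre-T alpha chain, had between 1.43 and 18.3.

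Markers of the sorted cells and of other cells were read beside the members. Each of the 9 iNKT genes had counts in at least 1 sample, with Zbtb16, which encodes the factor PLZF, at 172 to 1536 and Trav11 at 325 to 2097, and Trav11 was their most abundant gene per length. Of naive T cell genes, Lef1 had 92.0 to 189 CPM in thymus and spleen samples, 216 to 255 in mLN and 122 to 176 in iLN. Its log2 fold change for lymph nodes against spleen and thymus was 0.49 ± 0.12 (SE, edgeR adjusted p = 0.0299), which was not called. Ccr7 was called higher in lymph nodes than in spleen and thymus by edgeR, with a log2 fold change of 2.10 ± 0.33 (SE, adjusted p = 0.000765), and Dapl1 had 55 counts in mLN replicate 2, 5 in iLN replicate 2, 1 in spleen replicate 4 and 0 in the other 12 samples. The 6 gamma-delta T genes summed to 436 to 1062 CPM in the thymus, 373 to 607 in the spleen, 433 to 981 in mLN and 623 to 993 in iLN, nearly all of it on Tcrg-C1, Tcrg-C2 and Tcrg-C4, while Trdv4 was at 0 in all 15 samples and Trdc had the counts given above. Of 4 tested, Sox13, Tcrg-C1 and Tcrg-C2 were called higher in iLN than in spleen. The 3 regulatory T cell genes summed to 179 to 713 CPM, with Foxp3 at 234 counts in mLN replicate 2 and at most 59 elsewhere, and Ikzf2 the most abundant. edgeR called Il2ra higher in lymph nodes than in spleen and thymus (log2 fold change 2.09 ± 0.17 SE, adjusted p = 1.60e-06) and lower in thymus than in spleen (−3.58 ± 0.26, adjusted p = 1.12e-07), while mLN and spleen differed by −0.32 ± 0.22 (adjusted p = 0.632). Foxp3 was higher in lymph nodes by 3.52 ± 0.84 (edgeR adjusted p = 0.0194), which missed the threshold of 0.01.

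The 2 CD8 T genes summed to 1.59 to 26.5 CPM and the 7 immature thymocyte genes to 14.1 to 73.3 CPM in the thymus, 4.12 to 14.4 in the spleen and 2.88 to 9.34 in the lymph nodes. Thymus replicate 2, with the highest thymus share of members, had the highest value of both lists, which share Cd8a and Cd8b1. Thymus replicate 1, with the lowest share of members, had 33.7 CPM on the immature thymocyte genes, against 14.1 and 16.0 in thymus replicates 3 and 4. Of B cell genes, Ighm had 104 to 2104 counts, and Cd79a had 203 counts in spleen replicate 1, at most 9 in any other sample and 0 in 6 samples. The 5 myeloid genes summed to 0.987 to 52.4 CPM, highest in the same spleen sample and mostly on Lyz2, with Cd14 at 0 in 14 samples. Both NK genes together stayed at or under 3.59 CPM. The 4 red cell genes, with Hbb-bs the most abundant, summed to 22.4 to 117 CPM in the spleen, at most 13.8 in the thymus and at most 3.95 in the lymph nodes. The part of other cells in the counts on members was not tested. Without thymus replicate 2 and spleen replicate 1, a setting chosen after the data were seen, the lymph node difference in the members' share was 3.75 points (exact permutation p = 0.0274).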

How the data were processed

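The authors trimmed reads with cutadapt 1.7.1, aligned them with Bowtie2 2.2.9 to GRCm38 and estimated the deposited expected counts per gene with RSEM 1.2.31; the annotation release is not given. The deposited TPM values came from the same RSEM run by the authors, who scaled them by gene length. Here, a gene was a member if its symbol in GENCODE M21 began with Trav and a digit, Trav11 and Trav11d excepted. Members, the pathway list and the marker lists were chosen with earlier results of these data known. Genes named are those with the most counts in a family or sample, with a known role or, chosen after the data were seen, with most of their counts in 1 sample. Shares of a sample carry 95% Wilson intervals, and a count of 0 a floor of 3 counts. Tissues were compared by exact permutation of samples. Single genes and summed families were fitted in edgeR 4.0.16 (TMM, tissue and batch, low counts filtered) and DESeq2 1.42.0 (R 4.3.3). Benjamini-Hochberg adjustment covered all features fitted, or the 14 families. Alternatives changed unit, members, scaling, filter, batch and samples. Pieces of sequence came from GENCODE M21 exons on GRCm38. Tests and plots used Python 3.11.15.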

Additional observations from a re-analysis of the deposited data

Results flagged for a closer look

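In 6 of 61 groups of 4 samples examined, 1 sample stood apart from the other 3 by more than Dixon's critical value. Chance would give about 3.05 if the values followed a normal distribution. These values are shares of low and uneven counts, so the 6 show no excess over chance. A gene or family was examined by a minimum of 10 counts, which 1 high sample could meet. Family 4 took 2.25% of Trav counts in mLN replicate 2 (39 counts), against 0.406% to 0.720% in the other mLN samples. Family 5 took 1.499% in the same sample (26 counts), against 0.153% to 0.240%. Both families thus stood out in the same sample. Family 9 took 2.63% in spleen replicate 3 (27 counts), against 0.900% to 0.981% in the other spleen samples. Trav6-1 took 1.63% in spleen replicate 1 (27 counts), against 0% to 0.0900%. Trav13n-3 took 1.47% in spleen replicate 2 (18 counts), against 0% to 0.243%. Each of these 3 spleen values came from a different sample. Trav7-4 took 0.766% in thymus replicate 4 (15.25 counts), against 0% to 0.113% in the other thymus samples.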

How the results depend on the processing

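The lymph node difference in the members' share (3.63 points) lay between 2.65 and 4.29 points with 1 sample left out at a time. It was 2.54 points with TPM, 1.03 with Trav11d among the members, 2.64 within the batch First and 4.86 within the batch Second, and in these 4 settings the exact permutation p was over 0.05. The exact p over the 4 tissues (0.0392) lay between 0.00357 and 0.123 with 1 sample left out. It was 0.1701 with TPM, 0.780 with Trav11d among the members, 0.305 within the batch First and 0.219 within the batch Second. Samples shared a replicate number, and no label says that it stands for a shared animal. Of 21 same-number pairs 14 correlated above 0.1, against 11 of 21 pairs of unlike number in 1 batch, and r averaged 0.122 for them and 0.107 for the latter. As a hint from the data, 13 of 15 samples correlated best with a sample of their own number. With the replicate block the p over tissues was 0.0734 and the lymph node difference 3.72 points (exact permutation p = 0.0293).

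The lymph node difference in the Trav/Dv share (−0.05 points) lay between −0.485 and 0.198 with 1 sample left out. It was 0.600 within the batch First and 0.161 without thymus replicate 2 and spleen replicate 1, a setting added after the data were seen. The log2 difference of Trav11 lay between −0.178 and −0.00630 with 1 sample left out, and it was 0.108 within the batch Second. The number of families past the adjusted threshold (0) lay between 0 and 2 with 1 sample left out. The log2 difference of the members' level kept its sign in 22 of 22 alternatives. edgeR called 0 members and 0 families in each alternative fitted with it, as did DESeq2, which was run on all samples in 1 setting, and with at least 10 counts in every sample no member was left to test.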
